A study of Mus musculus with 9 samples.

Results

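The Hox genes of the 4 mouse Hox clusters were followed through primary mammary tumours grown from the lines 67NR, 66cl4 and 4T1. Members were all genes whose symbol in the array annotation is Hox, a cluster letter from a to d and a number, without antisense or other transcripts, and each was read from its brightest probe set, the one with the highest mean over the 9 arrays. The array held 33 such genes among 18193 genes with a probe set of their own, from 39 Hox genes in the RefSeq table. Hox genes without a probe set annotated to them alone are not among the 33.

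Each of the 3 groups held 3 female BALB/c mice of 7 to 9 weeks, and every mouse received 1000000 viable cells in the fourth mammary gland on the right side. The cells were labelled 67NR/CMVLUC, 66cl4/CMVLUC and 4T1/CMVLUC, so every group carried the CMVLUC construct and there was no tumour-free group. Primary tumours were taken on day 15, and RNA of the laser-captured tumour area of 1 mouse was hybridised to 1 array. The labels of 2 of the 67NR arrays lack the tissue field, and their group comes from the title. Each group is 1 cell line, so the mice repeat the host and the tumour, not the derivation of a line. All of the lines go back to the same mouse mammary tumour and serve as models of rising metastatic capacity, and the study asked about the epithelial to mesenchymal transition in that setting.

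Hox genes encode homeodomain transcription factors that give cells their position along the body axis. They sit in clusters in which gene order follows the order of expression along the embryo, with low numbers toward the head and high numbers toward the tail. Genes that share a number across clusters are paralogs. Adult tissues keep part of this code: fibroblasts, endothelium and mammary epithelium each hold a characteristic set, and the group 9 paralogs Hoxa9, Hoxb9 and Hoxd9 are jointly needed for the growth of the mammary gland in pregnancy.

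The lines differed in which Hox genes were high. Of the 17 Hox genes tested 11 passed in at least 1 comparison of the lines, beside 61.3% of all genes, so their number is close to that of other genes. The 11 were 4 of 6 tested Hoxa genes, 5 of 5 Hoxb genes, 0 of 3 Hoxc genes and 2 of 3 Hoxd genes. 4T1 tumours had high Hoxa2, Hoxa3 and Hoxa5, 66cl4 tumours had high Hoxb6 and Hoxb3, and Hoxa10 was above background in 66cl4 and 4T1 tumours but not in 67NR tumours. Tumours of 67NR had the highest mean Hoxd8 and Hoxd9. No tested Hoxc gene passed the test in any comparison on its brightest probe set.

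Signal was judged against background first, because the values come without detection calls. The limit was the highest of 27 control probe sets for bacterial transcripts on each array, 4.83 to 5.08 on the log2 scale. On at least 1 array of some line, 21 of the 33 Hox genes were above it. The other 12 stayed at 3.09 to 4.74 on all arrays and were taken as not above background in any line. These were Hoxa4, Hoxa11, Hoxa13, Hoxb1, Hoxb7, Hoxb9, Hoxc5, Hoxc13, Hoxd1, Hoxd3, Hoxd11 and Hoxd12. All 3 arrays were above the limit for 13 Hox genes in 67NR tumours, 15 in 66cl4 tumours and 14 in 4T1 tumours. The genes behind these numbers differed: Hoxa2 counted in 4T1 tumours only, Hoxa10 in 66cl4 and 4T1 tumours, Hoxb5 and Hoxb6 in 66cl4 tumours only and Hoxc4 in 67NR tumours only.

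The tests took genes with at least 3 array values above the 40th percentile of the array concerned; 17 of the 33 Hox genes and 13409 of all genes met this. The 16 Hox genes left out ran from 3.09 to 6.52 on single arrays. A gene that is bright in 1 line can pass this filter through that line alone, so the tested genes are not a sample of all members. By limma, with adjustment over all 13409 genes and a threshold of 0.05, 10 of the 17 tested Hox genes differed among the lines in the F-test, where 56.6% of all genes did. By pairs, 11 of the 17 (64.7%) passed in at least 1 comparison, near the 61.3% of all genes that did. These were 4 of 6 tested Hoxa genes, 5 of 5 Hoxb genes, 0 of 3 Hoxc genes and 2 of 3 Hoxd genes.

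Between 4T1 and 67NR tumours, 9 of 17 Hox genes passed, 5 higher in 4T1 and 4 lower, against 39.9% of all genes tested (19.4% higher and 20.5% lower). Between 66cl4 and 67NR tumours 6 of 17 passed, 4 higher and 2 lower in 66cl4, against 36.1% of all genes (20.0% higher and 16.0% lower). Between 4T1 and 66cl4 tumours 8 of 17 passed, 4 higher and 4 lower in 4T1, against 41.3% of all genes (17.9% higher and 23.4% lower). In these comparisons the single values of both lines were fully apart for 10, 6 and 8 of the 17 genes, against 49.7%, 52.5% and 50.9% of all genes. As shares of the 17 Hox genes, 52.9%, 35.3% and 47.1% passed, and 58.8%, 35.3% and 47.1% had values fully apart. The share passing between 4T1 and 67NR lay above that of all genes, and the share apart between 66cl4 and 67NR lay below it. Whether these shares differ from those of all genes was not tested. The median log2 difference of the tested Hox genes was 0.02, 0.08 and 0.06, beside -0.03, 0.01 and -0.03 over all genes. Each pair of comparisons shares the arrays of 1 line, so they are given side by side and not as independent results.

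**Figure D1:**
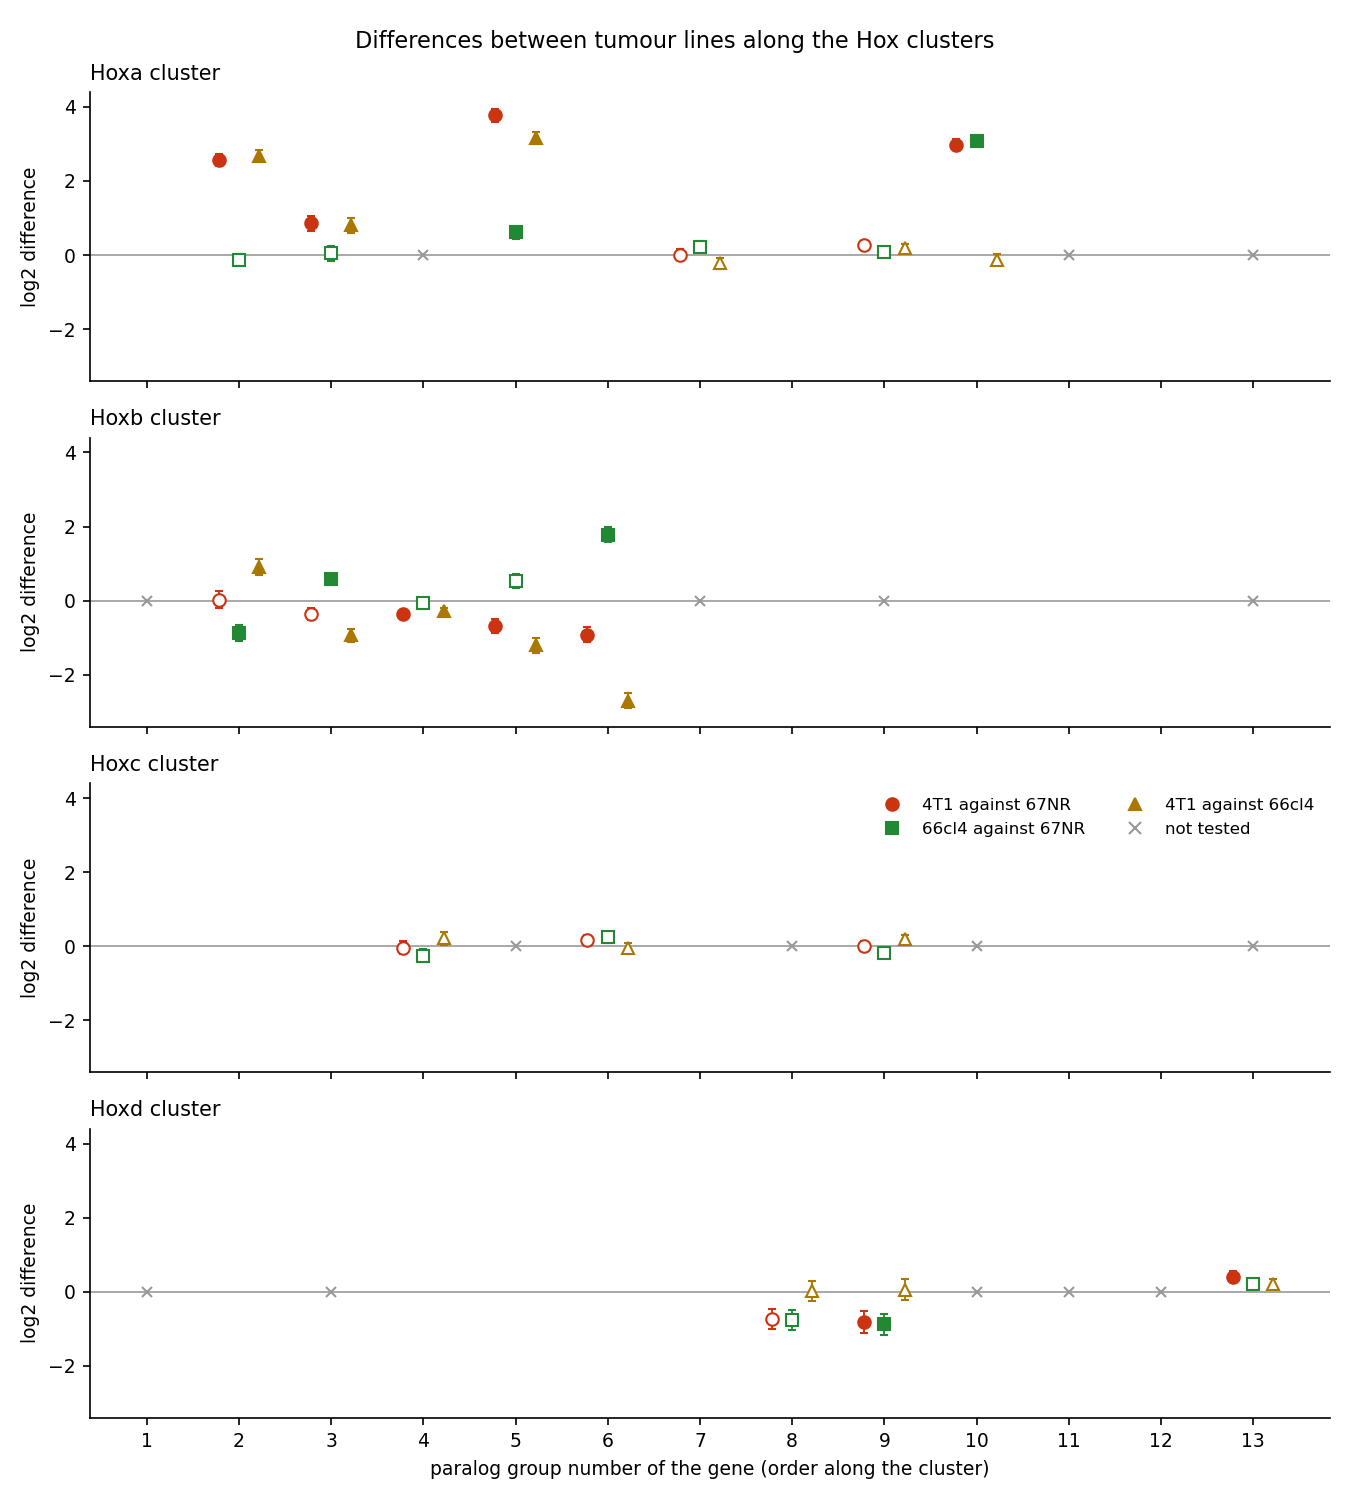
Log2 difference between tumour lines for each Hox gene, by cluster (panels) and paralog number (x axis). Symbols are the 3 comparisons, bars the SE of the fit, filled symbols an adjusted p under 0.05, and crosses genes that were not tested. The filled symbols of the Hoxa panel lie above 0, those of the Hoxb panel on both sides, and the Hoxc panel has none. Differences against a line at background are drawn as measured.

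Conditions of the arrays differed between the lines. The hybridization controls spiked into each sample averaged 10.87 to 11.47 (log2) on the 67NR arrays, 10.64 to 11.10 on the 66cl4 arrays and 10.30 to 10.72 on the 4T1 arrays. The 67NR arrays also carried higher numbers in their array file names than all others. In neither measure did the 67NR arrays overlap the 4T1 arrays. With these controls as a covariate 3 of the 9 Hox genes that passed between 4T1 and 67NR tumours still passed, Hoxa2, Hoxa5 and Hoxa10, and 2151 of 13409 genes passed in all, down from 5347. With the file number as a covariate 4 of the 9 still passed, the same genes and Hoxb6, and Hoxb3 was added, while all genes fell to 2661. The genes that lost their call were of 2 kinds. Hoxa3, Hoxb5 and Hoxd13 had smaller differences under both covariates, for Hoxb5 -0.20 and -0.35 in place of -0.68. Hoxd9, Hoxb4 and Hoxb6 kept theirs: Hoxd9 went from -0.82 to -0.92 with the file number and -0.99 with the controls, and Hoxb4 from -0.35 to -0.45 and -0.37. Between 66cl4 and 67NR tumours Hoxb2, Hoxb3 and Hoxd9 lost their call with the controls as a covariate, and Hoxb5 gained one. With the file number Hoxb3 and Hoxd9 lost theirs, and Hoxb5 again gained one. Since the 67NR and 4T1 arrays overlap in neither measure, line and array conditions cannot be told apart between these lines, for calls kept or lost. File numbers of the 67NR and 66cl4 arrays did not overlap either, so line and file number cannot be told apart there, for calls kept or lost. Nor can line and array conditions be told apart for the other calls that were lost.

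The captured tissue also differed in its cells. The 7 luminal epithelial markers summed to 410 to 461 on the linear scale in 67NR tumours, 7410 to 9512 in 66cl4 tumours and 23580 to 27565 in 4T1 tumours. Against 67NR, 6 of the 6 tested markers were higher in 4T1 and 1 of 6 in 66cl4. That gene was Krt8, a luminal keratin, which made up 95.2% to 96.9% of the sum in 66cl4 tumours, at 13.01 ± 0.20 (log2, SD, n = 3) against 6.74 ± 0.18 in 67NR tumours. Cdh1, which defines epithelium, cleared the limit in 4T1 tumours only, and Krt18 exceeded the limit on 1 of 3 67NR arrays. Markers of endothelium, pericytes and mast cells were higher in 67NR tumours than in the other two. In bulk tissue, fewer cells of a type and less RNA per cell cannot be told apart.

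In the Hoxa cluster, which lies on chromosome 6, the largest differences concerned Hoxa5, Hoxa2 and Hoxa10, with Hoxa3 smaller on its brightest probe set. The promoter windows that RefSeq gives for these genes are printed because the genes rose together in 4T1 tumours or, for Hoxa10, in both 66cl4 and 4T1 tumours. The window of Hoxa7 is added for contrast, since that neighbour passed no test. Each window runs 5′ to 3′ on the minus strand of GRCm38.p6, from 250 bases before to 50 after the annotated start. Capitals mark matches, on either strand, to 5 searched motifs: TAATTA, a homeodomain core; TGATTNAT, a Pbx-Hox site; AGGTCA, the core that retinoic acid receptors bind; TATAAA, the TATA box; CCAAT, the CCAAT box.
Hoxa2, chr6:52164782-52165081: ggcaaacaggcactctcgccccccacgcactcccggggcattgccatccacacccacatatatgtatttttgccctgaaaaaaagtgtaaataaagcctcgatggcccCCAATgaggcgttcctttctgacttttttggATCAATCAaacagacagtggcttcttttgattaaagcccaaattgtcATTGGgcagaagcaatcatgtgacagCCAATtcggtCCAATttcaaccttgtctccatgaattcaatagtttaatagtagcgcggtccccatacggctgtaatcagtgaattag
Hoxa3, chr6:52213018-52213317: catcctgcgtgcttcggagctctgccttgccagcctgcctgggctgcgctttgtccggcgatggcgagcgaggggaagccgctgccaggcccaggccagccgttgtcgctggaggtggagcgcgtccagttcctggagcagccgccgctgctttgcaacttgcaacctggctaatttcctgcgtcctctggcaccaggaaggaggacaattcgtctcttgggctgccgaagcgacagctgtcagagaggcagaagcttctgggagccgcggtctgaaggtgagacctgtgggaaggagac
Hoxa5, chr6:52204538-52204837: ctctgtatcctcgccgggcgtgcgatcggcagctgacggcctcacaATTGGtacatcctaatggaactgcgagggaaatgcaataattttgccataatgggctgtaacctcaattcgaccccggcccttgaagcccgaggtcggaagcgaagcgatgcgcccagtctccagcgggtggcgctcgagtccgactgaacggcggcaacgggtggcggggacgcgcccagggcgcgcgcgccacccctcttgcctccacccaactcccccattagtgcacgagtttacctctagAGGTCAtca
Hoxa7, chr6:52218524-52218823: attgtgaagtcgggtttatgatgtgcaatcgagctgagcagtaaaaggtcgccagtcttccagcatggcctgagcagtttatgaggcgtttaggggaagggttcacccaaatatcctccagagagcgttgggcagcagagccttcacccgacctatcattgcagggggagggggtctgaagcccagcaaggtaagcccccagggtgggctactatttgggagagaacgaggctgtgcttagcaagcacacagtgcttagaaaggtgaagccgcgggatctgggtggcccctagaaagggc
Hoxa10, first window, chr6:52234890-52235189: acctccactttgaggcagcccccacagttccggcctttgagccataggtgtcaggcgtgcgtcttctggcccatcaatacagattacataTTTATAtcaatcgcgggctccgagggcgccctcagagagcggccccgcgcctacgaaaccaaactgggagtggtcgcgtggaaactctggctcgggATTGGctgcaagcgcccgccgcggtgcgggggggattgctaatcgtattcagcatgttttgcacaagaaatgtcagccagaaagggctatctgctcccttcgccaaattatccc
Hoxa10, second window, chr6:52240805-52241104: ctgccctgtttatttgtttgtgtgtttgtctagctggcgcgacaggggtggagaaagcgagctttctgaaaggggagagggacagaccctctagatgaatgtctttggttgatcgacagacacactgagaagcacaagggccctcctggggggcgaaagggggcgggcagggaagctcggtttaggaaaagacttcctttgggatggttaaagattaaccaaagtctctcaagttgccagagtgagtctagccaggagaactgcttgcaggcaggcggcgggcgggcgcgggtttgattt

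The windows were unlike in sequence. The Hoxa2 window held 1 match to TGATTNAT, which 3.22% of 32851 mouse promoter windows of this length hold, and 4 matches to CCAAT, which 37.4% hold at least once. The Hoxa5 window held 1 AGGTCA, found in 16.3% of windows, and 1 CCAAT box match. In the first Hoxa10 window there was 1 TATA box match, found in 13.6% of windows, and 1 CCAAT box match. TAATTA, present in 5.29% of windows, was in none of those printed, and the windows of Hoxa3 and Hoxa7 and the second of Hoxa10 held no match to any of the 5 motifs. CpG dinucleotides numbered 29 in the Hoxa5 window, 20 in that of Hoxa3, 9 in those of Hoxa2 and Hoxa7, and 21 and 12 in those of Hoxa10, beside a median of 7 over all windows (quartiles 3 and 20). RefSeq places the Hoxa3 window 8480 bases upstream of the Hoxa5 window on the same strand. A match is a description of these letters only.

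Hoxa5, a regulator of lung and cervicothoracic skeletal development that is known as silenced in many human breast cancers, was far higher in 4T1 tumours. On probe set 1448926_at its log2 signal was 6.55, 6.88 and 6.60 in 67NR tumours, 7.15, 7.21 and 7.52 in 66cl4 tumours and 10.76, 10.38 and 10.21 in 4T1 tumours. The 3 lines did not overlap. The difference between 4T1 and 67NR was 3.77 ± 0.17 (SE), or 13.6-fold (adjusted p = 2.32e-07), and that between 4T1 and 66cl4 was 3.16 ± 0.17, or 8.94-fold (adjusted p = 6.18e-07). Between 66cl4 and 67NR tumours the difference was 0.61 ± 0.17 (adjusted p = 0.0165). That smaller difference failed the test when 67NR replicate 1, 67NR replicate 3 or 66cl4 replicate 3 was left out, with adjusted p of 0.0603, 0.0555 and 0.0612. A further Hoxa5 probe set, 1443803_x_at, read 8.88, 8.65 and 8.92 in 4T1 tumours against 6.97 to 7.31 in 67NR and 7.15 to 7.28 in 66cl4 tumours. It showed a difference of 1.64 ± 0.13 for 4T1 against 67NR (adjusted p = 1.12e-05) and of 0.03 ± 0.13 for 66cl4 against 67NR (adjusted p = 0.877), so the rise in 4T1 was seen on both probe sets and that in 66cl4 on 1.

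Hoxa2, which sets the identity of the second pharyngeal arch, was above background in 4T1 tumours alone. It read 3.77, 4.04 and 3.93 in 67NR tumours, 3.99, 3.50 and 3.90 in 66cl4 tumours and 6.32, 6.72 and 6.39 in 4T1 tumours. The 4T1 arrays lay above the limit and the other 6 below it. Hoxa2 also met the filter of the tests through its 4T1 arrays alone, so filter and difference rest on the same values. Where 1 line is at background, a fold is given as a bound, from the mean of the brighter line and the mean of the other line's limits. Hoxa2 was at least 2.9-fold higher in 4T1 than in 67NR tumours (means 6.48 and 3.91, adjusted p = 2.16e-06) and at least 2.97-fold higher than in 66cl4 tumours (mean 3.80, adjusted p = 1.39e-06).

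Hoxa3, needed for the thymus and parathyroid, was higher in 4T1 tumours by an amount that depended on the probe set. Its brightest probe set, 1452421_at, read 6.19, 6.05 and 5.52 in 67NR tumours, 6.11, 6.05 and 5.77 in 66cl4 tumours and 6.99, 6.44 and 6.91 in 4T1 tumours. The 4T1 values stood above all others by a narrow margin. The difference was 0.86 ± 0.20 against 67NR (adjusted p = 0.00741) and 0.80 ± 0.20 against 66cl4 (adjusted p = 0.0103). With the hybridization controls as a covariate these became 0.10 (adjusted p = 0.746) and 0.38 (adjusted p = 0.0643), and with the file number the first became 0.41 (adjusted p = 0.385). On probe set 1427433_s_at, Hoxa3 read 7.67, 7.11 and 6.74 in 4T1 tumours, while the other lines lay below the limit, at 4.12 to 4.59 in 67NR and 4.42 to 4.62 in 66cl4 tumours. That set gave at least 4.71-fold against 67NR (adjusted p = 1.48e-05) and at least 4.82-fold against 66cl4 (adjusted p = 1.58e-05). It met the filter of the tests through its 4T1 arrays alone. The third set, 1431392_at, lay near the limit at 4.80 to 5.36 in all lines and differed by 0.01 ± 0.15 between 4T1 and 67NR tumours (adjusted p = 0.974).

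Hoxa10, a regulator of the uterus and of blood progenitors, separated 67NR tumours from the other lines. It read 4.11, 3.82 and 3.89 in 67NR tumours, 6.80, 7.28 and 7.01 in 66cl4 tumours and 6.91, 6.78 and 7.06 in 4T1 tumours. All 67NR values were below the limit, and the values of 66cl4 and 4T1 overlapped. Hoxa10 was at least 4.26-fold higher in 66cl4 than in 67NR tumours (means 7.03 and 3.94, adjusted p = 9.94e-07) and at least 3.93-fold higher in 4T1 tumours (mean 6.92, adjusted p = 4.22e-07). Between 4T1 and 66cl4 the difference was -0.12 ± 0.14 (adjusted p = 0.566). A second Hoxa10 probe set, 1446408_at, stayed at background on all arrays and gave no comparison.

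Several marker sums were highest in 4T1 tumours, as were Hoxa2, Hoxa3 and Hoxa5. The luminal epithelial sums given above and the sum of 10 fibroblast markers were among them. Both sums were also higher in 66cl4 than in 67NR tumours, where Hoxa2 and Hoxa3 did not differ (-0.12 and 0.05, limma adjusted p = 0.611 and 0.861). Of the fibroblast markers, 6 were higher and 2 lower in 4T1 than in 67NR tumours. Pdgfra and Dpt were lower, with differences of -1.65 and -2.76 (limma adjusted p = 0.000285 and 0.000261), and Pi16 and Fap did not pass. The collagen genes Col1a1, Col1a2 and Col3a1 had the highest means of the list in 4T1 tumours, at 12.60, 13.18 and 13.26. The sum of all 10 was 5436 to 7069 in 67NR tumours, 8711 to 15254 in 66cl4 tumours and 19189 to 44417 in 4T1 tumours. Neutrophil and basal and myoepithelial sums were raised in 4T1 tumours alone. Neutrophil markers summed to 1251 to 2645 in 67NR, 788 to 2120 in 66cl4 and 3425 to 5112 in 4T1 tumours. Against 67NR, 1 of 4 tested was higher in 4T1 and 0 lower. Basal and myoepithelial markers summed to 1295 to 1566, 1203 to 1472 and 2352 to 4632. Of 4 tested, 2 were higher and 1 lower in 4T1 than in 67NR. The part of any of these cells in the Hoxa values was not tested.

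Hoxa7 and Hoxa9, posterior genes known from leukaemia with translocations of the Kmt2a gene, passed no test on their brightest probe sets. Hoxa7 ranged from 6.85 to 7.48 over the 9 arrays (F-test adjusted p = 0.32). For Hoxa9 the range was 5.95 to 6.50 (F-test adjusted p = 0.174). The dimmer Hoxa9 set 1455626_at behaved otherwise: it read 4.83, 4.69 and 4.98 in 67NR tumours, 5.12, 5.41 and 5.62 in 66cl4 tumours and 6.37, 7.45 and 5.96 in 4T1 tumours. The lines did not overlap on this set, and 67NR was not above background. It was at least 3.14-fold higher in 4T1 than in 67NR tumours (means 6.59 and 4.83, adjusted p = 0.00208). Between 4T1 and 66cl4 it differed by 1.21 ± 0.32 (adjusted p = 0.0148). That call was lost without 66cl4 replicate 1 (adjusted p = 0.0544). Leaving out single arrays gave 0.78 to 1.53, the lowest without 4T1 replicate 2. The highest value, 7.45, was in 4T1 replicate 2. Of the 4T1 arrays this one had the highest sum of fibroblast markers, 44417 against 19189 and 28358. It also had the highest sum for B and plasma cells, 4281 against 1742 and 166, and for T and NK cells, 1112 against 716 and 918. The same held for basal and myoepithelial, endothelial and skeletal muscle markers. Pericyte, adipocyte, macrophage, neutrophil, mast cell and luminal sums were highest on other 4T1 arrays. The part of any of these cells in the Hoxa9 value was not tested.

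**Figure D2:**
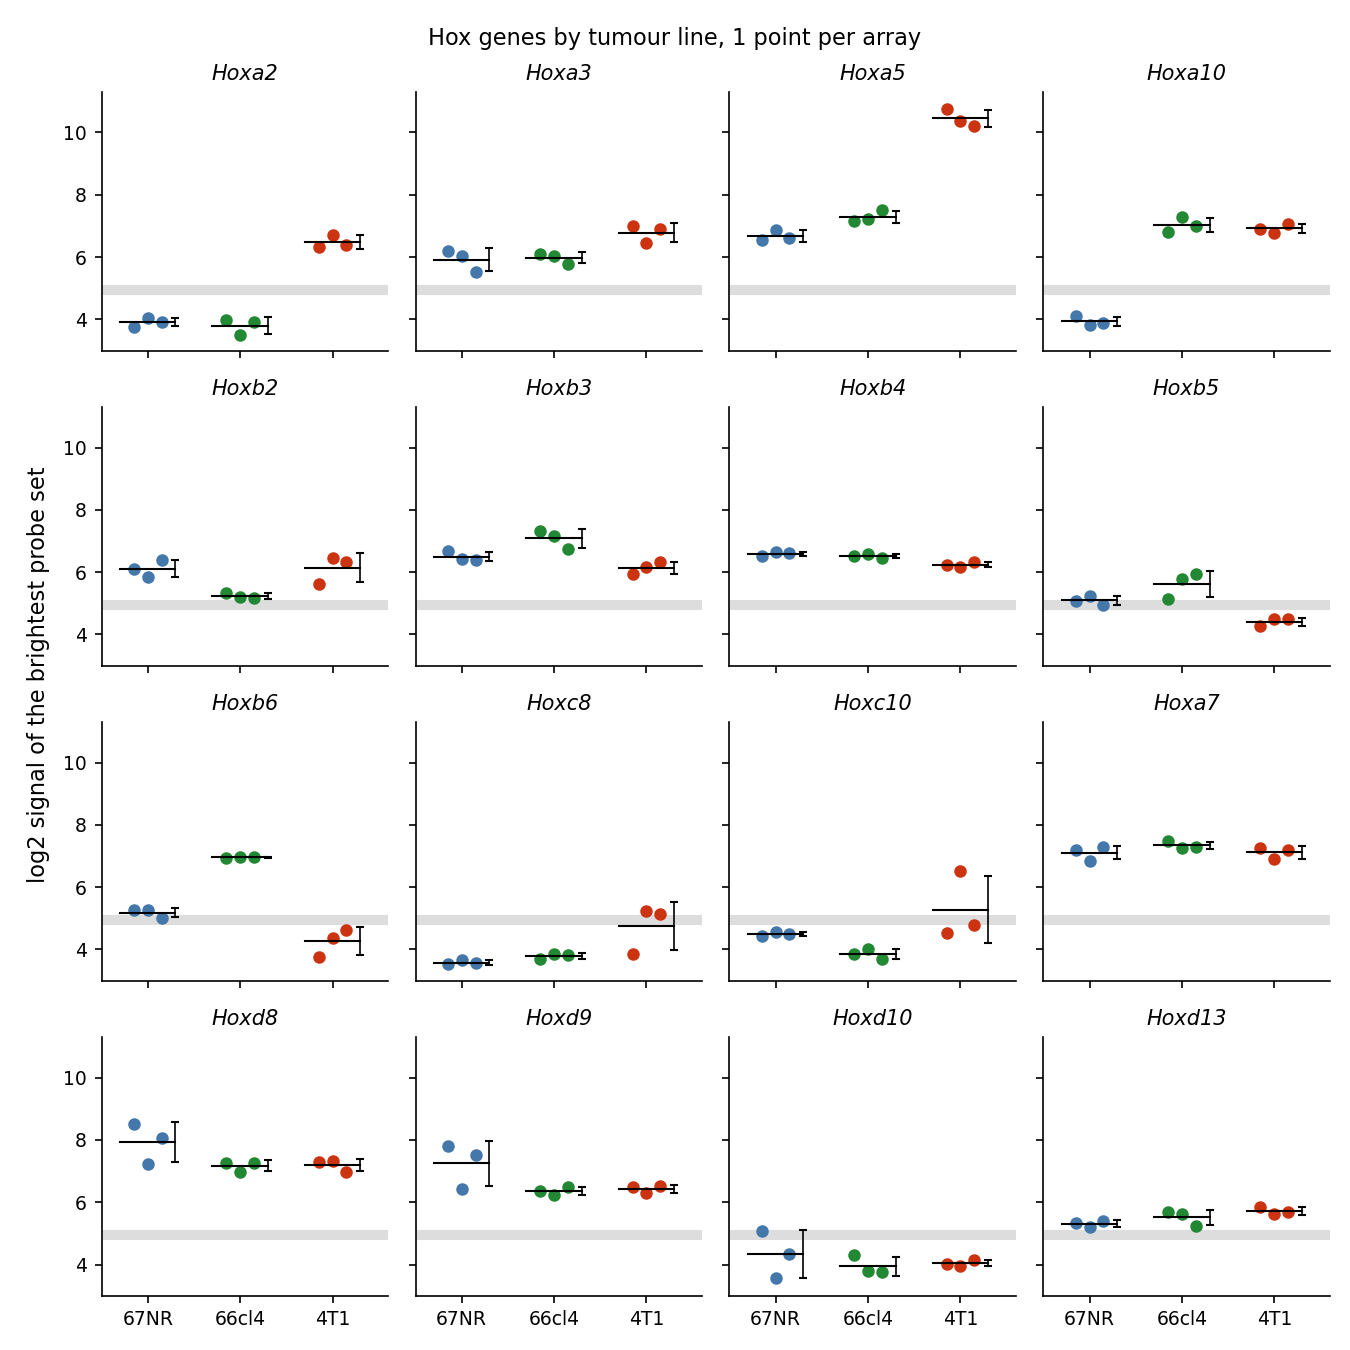
Log2 signal of the brightest probe set of 16 Hox genes (panels) in 67NR, 66cl4 and 4T1 tumours, 1 point per array. Lines are means, bars the SD of 3 arrays, and the grey band the range of the background limit, 4.83 to 5.08. Hoxa2 clears the band in 4T1 only, Hoxa10 in 66cl4 and 4T1, and Hoxb5 and Hoxb6 fall below it in 4T1. 67NR replicate 2, the middle point of its group, lies lowest of the 67NR arrays for Hoxd8, Hoxd9 and Hoxd10.

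In the Hoxb cluster, on chromosome 11, all 5 tested genes, Hoxb2 to Hoxb6, passed in at least 1 comparison, and 66cl4 and 4T1 tumours differed in each of them. Hoxb6, a gene of the trunk axis and of early blood cells, was highest in 66cl4. It read 5.26, 5.26 and 5.01 in 67NR tumours, 6.95, 6.96 and 6.97 in 66cl4 tumours and 3.76, 4.38 and 4.64 in 4T1 tumours. The 3 lines did not overlap. 4T1 tumours were below the limit, 67NR tumours were near it and above it on 2 of 3 arrays. The difference between 66cl4 and 67NR was 1.78 ± 0.20, or 3.44-fold (adjusted p = 0.000114). Hoxb6 was at least 3.97-fold lower in 4T1 than in 66cl4 tumours (means 4.26 and 6.96, adjusted p = 5.62e-06) and at least 1.15-fold lower than in 67NR tumours (mean 5.18, adjusted p = 0.00428). With the hybridization controls as a covariate the last difference, -0.92, had an adjusted p of 0.117.

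Hoxb3, a hindbrain and pharyngeal gene, was likewise highest in 66cl4 tumours. Its brightest set, 1427605_at, read 6.67, 6.43 and 6.40 in 67NR tumours, 7.32, 7.17 and 6.74 in 66cl4 tumours and 5.93, 6.17 and 6.31 in 4T1 tumours. No line overlapped another. The difference was -0.94 ± 0.17 for 4T1 against 66cl4 (adjusted p = 0.00142), 0.58 ± 0.17 for 66cl4 against 67NR (adjusted p = 0.0209) and -0.36 ± 0.17 for 4T1 against 67NR (adjusted p = 0.112). The call for 66cl4 against 67NR was lost in 4 of 9 fits that left out 1 array, without 67NR replicates 2 or 3 or 66cl4 replicates 1 or 2, at adjusted p of 0.0684 to 0.0778, and with the file number as a covariate (0.28, adjusted p = 0.261). The second Hoxb3 set, 1456229_at, showed the same order more widely spaced. It read 5.93, 5.79 and 5.93 in 67NR tumours, 7.66, 7.83 and 7.52 in 66cl4 tumours and 4.89, 5.77 and 5.13 in 4T1 tumours. Its differences were -2.40 ± 0.20 for 4T1 against 66cl4 (adjusted p = 1.64e-05), 1.79 ± 0.20 for 66cl4 against 67NR (adjusted p = 0.000166) and -0.62 ± 0.20 for 4T1 against 67NR (adjusted p = 0.0398). The last kept its call in 2 of 9 fits with 1 array left out, with adjusted p of up to 0.125.

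Hoxb5, a gene of the enteric nervous system and of blood stem cells, was not above background in 4T1 tumours. It read 5.08, 5.23 and 4.95 in 67NR tumours, 5.13, 5.78 and 5.95 in 66cl4 tumours and 4.27, 4.49 and 4.48 in 4T1 tumours. The 4T1 values lay below all others, and 67NR and 66cl4 overlapped. Hoxb5 was at least 1.57-fold lower in 4T1 than in 66cl4 tumours (means 4.41 and 5.62, adjusted p = 0.000813) and at least 1.08-fold lower than in 67NR tumours (mean 5.09, adjusted p = 0.0187), where 2 of 3 arrays were above the limit. The comparison with 67NR lost its call without 67NR replicate 2 (adjusted p = 0.0691) or 4T1 replicate 1 (adjusted p = 0.0566). Between 66cl4 and 67NR the difference was 0.53 ± 0.19 (adjusted p = 0.0558), and it became 0.78 (adjusted p = 0.00311) without 66cl4 replicate 1.

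Hoxb4, known for expanding blood stem cells when added to them, differed by little. It read 6.51, 6.64 and 6.62 in 67NR tumours, 6.53, 6.58 and 6.44 in 66cl4 tumours and 6.23, 6.17 and 6.32 in 4T1 tumours. The 4T1 values lay just below the rest. The difference was -0.35 ± 0.09 against 67NR (adjusted p = 0.015) and -0.28 ± 0.09 against 66cl4 (adjusted p = 0.0411). The first lost its call without 67NR replicate 2 (adjusted p = 0.0565) or 4T1 replicate 2 (adjusted p = 0.0547), and the second kept it in 2 of 9 fits with 1 array left out, those without 67NR replicate 1 or 4T1 replicate 3. Hoxb2, active in the hindbrain, went the other way between these lines, being lowest in 66cl4. It read 6.10, 5.84 and 6.39 in 67NR tumours, 5.34, 5.20 and 5.16 in 66cl4 tumours and 5.61, 6.46 and 6.34 in 4T1 tumours. All 66cl4 values lay below those of the other lines, which overlapped. Hoxb2 differed by -0.88 ± 0.22 between 66cl4 and 67NR (adjusted p = 0.0116) and by 0.90 ± 0.22 between 4T1 and 66cl4 (adjusted p = 0.0086). With the hybridization controls as a covariate the first became -0.72 (adjusted p = 0.0615).

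Macrophage markers moved with Hoxb3 to Hoxb6 between 66cl4 and 4T1 tumours, since 7 of 7 were lower in 4T1. They summed to 38984 to 42926 in 67NR, 44773 to 56249 in 66cl4 and 18001 to 20956 in 4T1 tumours. Between 66cl4 and 67NR tumours, 2 of the 7 were higher in 66cl4. Marker sums of T and NK cells and of endothelium, like Hoxb2, were lowest in 66cl4 tumours. For T and NK cells 7 of 7 markers read lower in 66cl4 against 67NR, and 4T1 against 66cl4 gave 3 higher and 1 lower. They summed to 1150 to 1814 in 67NR, 456 to 619 in 66cl4 and 716 to 1112 in 4T1 tumours. For endothelium 8 of 8 read lower in 66cl4 against 67NR, and 4T1 against 66cl4 gave 4 higher. Unlike Hoxb2, which differed by 0.03 between 4T1 and 67NR tumours (limma adjusted p = 0.937), 8 of 8 endothelial markers were lower in 4T1 there. For T and NK cells 3 of 7 were lower and 0 higher in that comparison. The part of these cells in the Hoxb values was not tested.

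**Figure D3:**
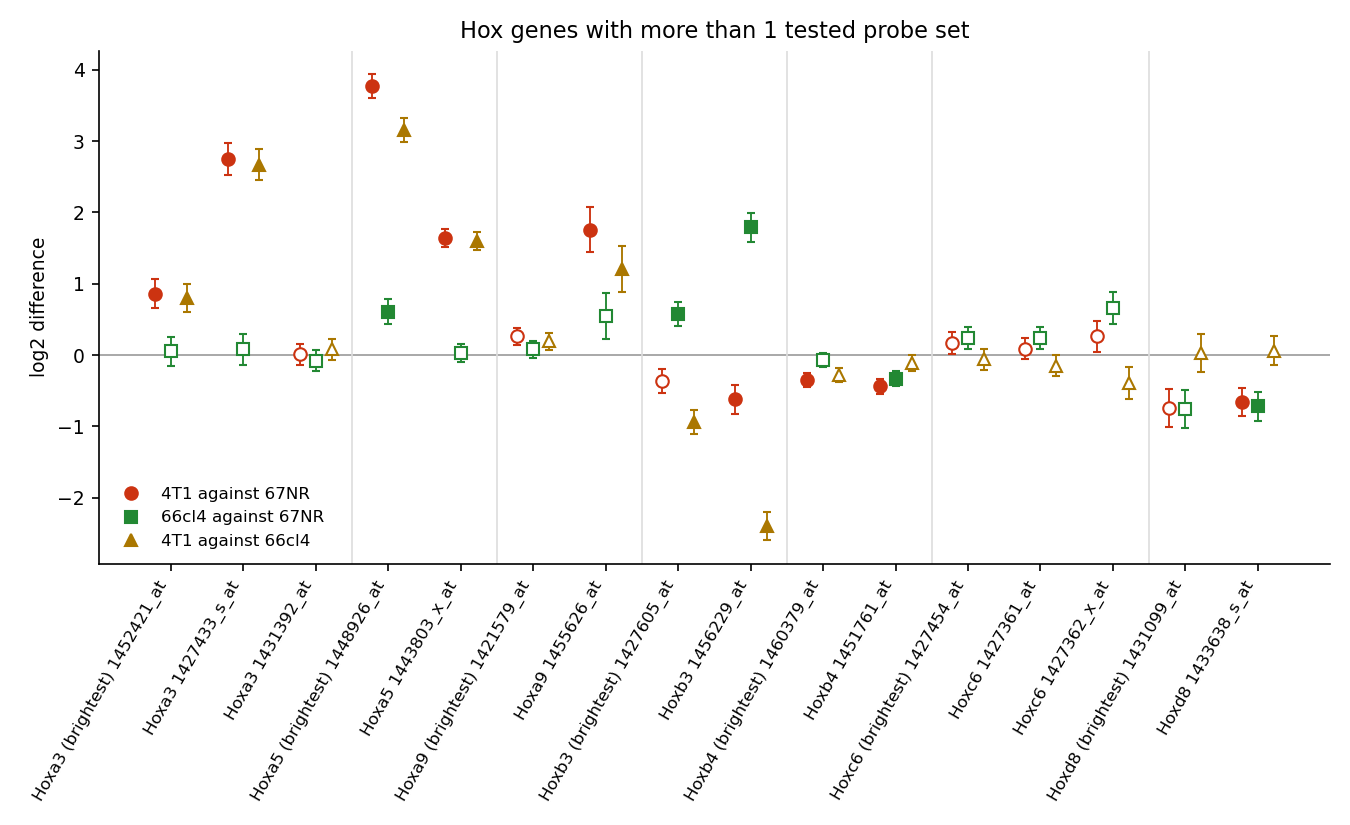
Log2 differences with SE for every tested probe set of the 7 Hox genes that have more than 1 (x axis), in the 3 comparisons. Filled symbols have an adjusted p under 0.05 in the fit over 28223 probe sets, in which the brightest Hoxb4 set has an adjusted p of 0.0602 for 4T1 against 66cl4. Sets of Hoxa3, Hoxa9 and Hoxb3 differ in size, while those of Hoxc6 pass nowhere with all 9 arrays.

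Differences of the same gene on different probe sets, shown in the plot by probe set, were computed over 28223 probe sets. Of the 33 Hox genes 11 had several sets, 48 sets in all. Taking any set of a gene in that fit, 11 of 17 Hox genes passed between 4T1 and 67NR, 8 between 66cl4 and 67NR and 8 between 4T1 and 66cl4, beside 43.6%, 37.6% and 44.0% of all genes counted in the same way. Hoxa9 was added in both comparisons with 4T1, Hoxd8 in both with 67NR, Hoxb3 in 4T1 against 67NR and Hoxb4 in 66cl4 against 67NR. Hoxd9, which has 1 set, dropped out in 4T1 against 67NR and Hoxb4 in 4T1 against 66cl4, so the counts reflect the wider adjustment as well as the choice of set. The dimmer Hoxb4 set 1451761_at was above background only in 67NR tumours, on 2 of 3 arrays, and was at least 1.08-fold lower in 4T1 (adjusted p = 0.0115) and at least 1.13-fold lower in 66cl4 (adjusted p = 0.0458). The second call held in 2 of 9 fits with 1 array left out, with adjusted p of up to 0.159, and the first in 8 of 9, lost without 67NR replicate 2 (adjusted p = 0.0513).

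In the Hoxd cluster, on chromosome 2, Hoxd8 and Hoxd9 read highest in 67NR tumours, with a wide spread. Hoxd8, a gene of the trunk, read 8.52, 7.23 and 8.05 in 67NR tumours, 7.26, 6.97 and 7.27 in 66cl4 tumours and 7.28, 7.33 and 6.98 in 4T1 tumours. Hoxd9, of limb and mammary gland, read 7.80, 6.43 and 7.53, then 6.37, 6.24 and 6.49, then 6.49, 6.29 and 6.51 in the same order. For both genes, 67NR replicate 2 fell among the other lines and replicates 1 and 3 stood above them, so the groups overlapped. Hoxd9 passed the test in both comparisons, at -0.82 ± 0.29 for 4T1 against 67NR (adjusted p = 0.0467) and -0.88 ± 0.29 for 66cl4 against 67NR (adjusted p = 0.0381). Hoxd8 did not pass, at -0.74 ± 0.27 (adjusted p = 0.0567) and -0.76 ± 0.27 (adjusted p = 0.0535).

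These Hoxd values turned on single 67NR arrays. Without 67NR replicate 2, Hoxd9 differed by -1.24 for 4T1 against 67NR (adjusted p = 0.000299) and by -1.30 for 66cl4 against 67NR (adjusted p = 0.000322). Without 67NR replicate 1 the same differences were -0.55 (adjusted p = 0.161) and -0.61 (adjusted p = 0.132), and without replicate 3 they were -0.68 (adjusted p = 0.151) and -0.74 (adjusted p = 0.127). Over the 9 fits that each left out 1 array, Hoxd9 passed in 1 between 4T1 and 67NR and in 4 between 66cl4 and 67NR. The second Hoxd8 set, 1433638_s_at, gave -0.66 ± 0.20 (adjusted p = 0.0287) and -0.72 ± 0.20 (adjusted p = 0.0231), which held in 5 and 4 of 9 fits with 1 array left out, and also read lowest in 67NR replicate 2, at 6.71 against 7.56 and 7.44. Hoxd10, which keeps endothelium quiescent, showed the same order within 67NR at a lower level, 5.09, 3.57 and 4.34, and only replicate 1 was above the limit. It was not tested. In counts, leaving out 67NR replicate 2 gave 7 Hox genes between 4T1 and 67NR, 6 between 66cl4 and 67NR and 7 between 4T1 and 66cl4, with Hoxd8 added in the first and second.

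Several marker lists moved with Hoxd8 and Hoxd9 across the lines. All 8 endothelial markers were lower in both 66cl4 and 4T1 than in 67NR tumours, and they summed to 4949 to 7725, 1227 to 1587 and 1821 to 2123 in 67NR, 66cl4 and 4T1. Pericyte markers, of which 6 of 6 were lower in 66cl4 and 5 of 6 in 4T1, summed to 7443 to 7873, 1128 to 2108 and 1110 to 1663. Mast cell markers, 6 of 6 lower in both, summed to 11028 to 15874, 339 to 440 and 251 to 345. Adipocyte markers, 1 of 2 tested lower in both, summed to 4768 to 5637, 644 to 1467 and 339 to 782. Of the adipocyte sum in 67NR tumours, 97.4% to 97.8% was Fabp4. Within 67NR the endothelial sum was lowest in replicate 2, at 4949, whereas the pericyte sum was highest there. The adipocyte sum was 5637, 4768 and 5398 in replicates 1, 2 and 3, the same order as Hoxd8 and Hoxd9. The mast cell sum was lowest in replicate 1, where Hoxd8 and Hoxd9 were highest, at 11028 against 12087 and 15874 in replicates 2 and 3. The fibroblast sum was lowest in replicate 2 within 67NR, at 5436, but across the lines it was lowest in 67NR tumours. The part of these cells in the Hoxd values was not tested.

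Hoxd13, a gene of digits and genitalia, read 5.33, 5.19 and 5.41 in 67NR tumours, 5.69, 5.61 and 5.23 in 66cl4 tumours and 5.85, 5.61 and 5.70 in 4T1 tumours. These values were close to the limit, with 4T1 just above 67NR. The difference of 0.41 ± 0.14 between 4T1 and 67NR passed (adjusted p = 0.0375), and it kept its call in 4 of 9 fits with 1 array left out. It was lost without any 67NR replicate or without 4T1 replicate 1 or 3, and with the file number (0.17, adjusted p = 0.62) or the hybridization controls (0.17, adjusted p = 0.66) as a covariate.

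In the Hoxc cluster, on chromosome 15, signal was present without a difference that passed. Hoxc6, a gene of the mammary region, ranged from 6.27 to 6.78 over the 9 arrays (F-test adjusted p = 0.344). Hoxc9, of trunk and adipose tissue, ranged from 6.26 to 6.70 (F-test adjusted p = 0.276). Hoxc4, of the neck and thorax, lay at 4.65 to 5.42, close to the limit (F-test adjusted p = 0.4). On these brightest sets the limma count at an unadjusted p under 0.05 was 0 as well. The largest of their 9 differences was -0.25 ± 0.17, for Hoxc4 in 66cl4 against 67NR tumours (adjusted p = 0.287). A dimmer Hoxc6 set, 1427362_x_at, read 5.36, 5.44 and 5.78 in 67NR tumours, 6.04, 5.96 and 6.55 in 66cl4 tumours and 5.36, 5.88 and 6.12 in 4T1 tumours. Its 66cl4 values lay above those of 67NR, and the difference of 0.66 ± 0.22 missed the threshold (adjusted p = 0.0531). It passed in 3 of 9 fits with 1 array left out.

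Among the 16 Hox genes left out of the test, 4 were above the limit on some array, and 2 of these in 4T1 tumours. Hoxc8, active where the mammary placodes form, read 3.86, 5.25 and 5.14 in 4T1 tumours, and 3.52 to 3.65 in 67NR and 3.69 to 3.86 in 66cl4 tumours. Hoxc10, of the lumbar axis, read 4.53, 6.52 and 4.79 in 4T1 tumours, 4.43 to 4.57 in 67NR tumours and 3.70 to 4.03 in 66cl4 tumours. Both genes thus had their highest value in 4T1 replicate 2. Hoxb13, of the prostate and tail end, exceeded the limit on 1 of 3 66cl4 arrays, at 4.98. Without the filter all 18193 genes were tested, and Hoxc8 then passed between 4T1 and each other line, Hoxc10 between 4T1 and 66cl4 and Hoxb13 between 66cl4 and 67NR. Hoxa4 and Hoxd11 passed there as well although neither was above background.

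Cofactors and regulators of Hox genes were counted in lists of known members, to be read against the 39.9%, 36.1% and 41.3% of all genes that passed in these comparisons. TALE homeodomain proteins bind DNA together with Hox proteins. Of 7 tested, 0 were higher and 2 lower in 4T1 than in 67NR tumours, 2 higher and 1 lower in 66cl4 than in 67NR, and 1 higher and 3 lower in 4T1 than in 66cl4. Pbx3 had its highest mean in 66cl4 tumours: 9.04 ± 0.05 (SD, n = 3), against 8.40 ± 0.02 in 67NR and 7.21 ± 0.34 in 4T1 tumours. It fell by 1.83 between 66cl4 and 4T1 (adjusted p = 1.34e-05) and by 1.19 between 67NR and 4T1 (adjusted p = 0.000206). Meis1 was lowest in 66cl4 tumours, at 6.49 ± 0.38 against 7.25 ± 0.18 in 67NR and 7.56 ± 0.15 in 4T1. It differed by 1.07 between 4T1 and 66cl4 (adjusted p = 0.0013). Meis2 differed by -0.83 between 4T1 and 66cl4 (adjusted p = 0.00132). Pbx2 differed by 0.45 between 66cl4 and 67NR (adjusted p = 0.0262).

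Trithorax proteins keep Hox genes active and Polycomb proteins keep them silent. Of 12 trithorax-side genes, 1 was higher and 1 lower in 4T1 than in 67NR, 3 higher and 1 lower in 66cl4 than in 67NR, and 0 higher and 3 lower in 4T1 than in 66cl4. Men1, the menin subunit that holds Kmt2a complexes at Hox genes, was higher than in 67NR by 0.67 ± 0.12 in 4T1 (adjusted p = 0.00127) and by 0.47 ± 0.12 in 66cl4 tumours (adjusted p = 0.0101). Ash2l, a core subunit, was lower in 4T1 than in 67NR by a difference of -0.49 ± 0.13 (adjusted p = 0.0116). Hcfc1 differed by 0.48 ± 0.13 between 66cl4 and 67NR (adjusted p = 0.0141). Kdm6a, which removes the Polycomb mark, differed by 0.56 ± 0.19 in the same comparison (adjusted p = 0.0481).

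Of 26 Polycomb-side genes, 8 were higher and 5 lower in 4T1 than in 67NR, 9 higher and 0 lower in 66cl4 than in 67NR (12 and 1 at an unadjusted p under 0.05 by limma), and 4 higher and 8 lower in 4T1 than in 66cl4. Their median difference between 66cl4 and 67NR was 0.32, where that of all genes was 0.01. Pcgf6, of a variant Polycomb complex 1, stood out in size, with means of 5.87 ± 0.16 (67NR), 8.23 ± 0.21 (66cl4) and 8.71 ± 0.13 (4T1). It differed by 2.83 ± 0.14 between 4T1 and 67NR (adjusted p = 4.22e-07) and by 2.36 ± 0.14 between 66cl4 and 67NR (adjusted p = 2.7e-06). Pcgf5 was highest in 66cl4, 1.18 ± 0.15 above 67NR (adjusted p = 0.000236), and Pcgf3 in 4T1, 0.91 ± 0.12 above 67NR (adjusted p = 0.000296). Eed, a core subunit of Polycomb complex 2, was lowest in 4T1, with a difference of -0.76 ± 0.11 from 66cl4 (adjusted p = 0.000384). Ezh2, the catalytic subunit, did not pass in any comparison, at 9.17 ± 0.25, 9.50 ± 0.14 and 9.51 ± 0.13, and is outside the rule by which genes were named.

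Retinoic acid induces the 3′ end of the Hox clusters in the embryo. Of 13 tested genes of its pathway, 4 were higher and 2 lower in 4T1 than in 67NR, 4 higher and 2 lower in 66cl4 than in 67NR, and 4 higher and 1 lower in 4T1 than in 66cl4. Crabp1, which binds retinoic acid in the cytoplasm, was not above background in 67NR tumours and was at least 11.2-fold higher in 4T1 tumours (means 4.20 and 8.43, adjusted p = 6.82e-07). Stra6, a retinol uptake receptor, was higher than in 67NR by 3.65 ± 0.58 in 4T1 (adjusted p = 0.000803) and by 2.59 ± 0.58 in 66cl4 tumours (adjusted p = 0.00637). Rdh10, the first enzyme of retinoic acid synthesis, was higher by 2.33 ± 0.36 in 4T1 (adjusted p = 0.000736) and by 1.16 ± 0.36 in 66cl4 (adjusted p = 0.0318). Dhrs3, which turns retinal back to retinol, was highest in 66cl4, with a difference of -1.75 ± 0.24 between 4T1 and 66cl4 (adjusted p = 0.000313).

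**Figure D4:**
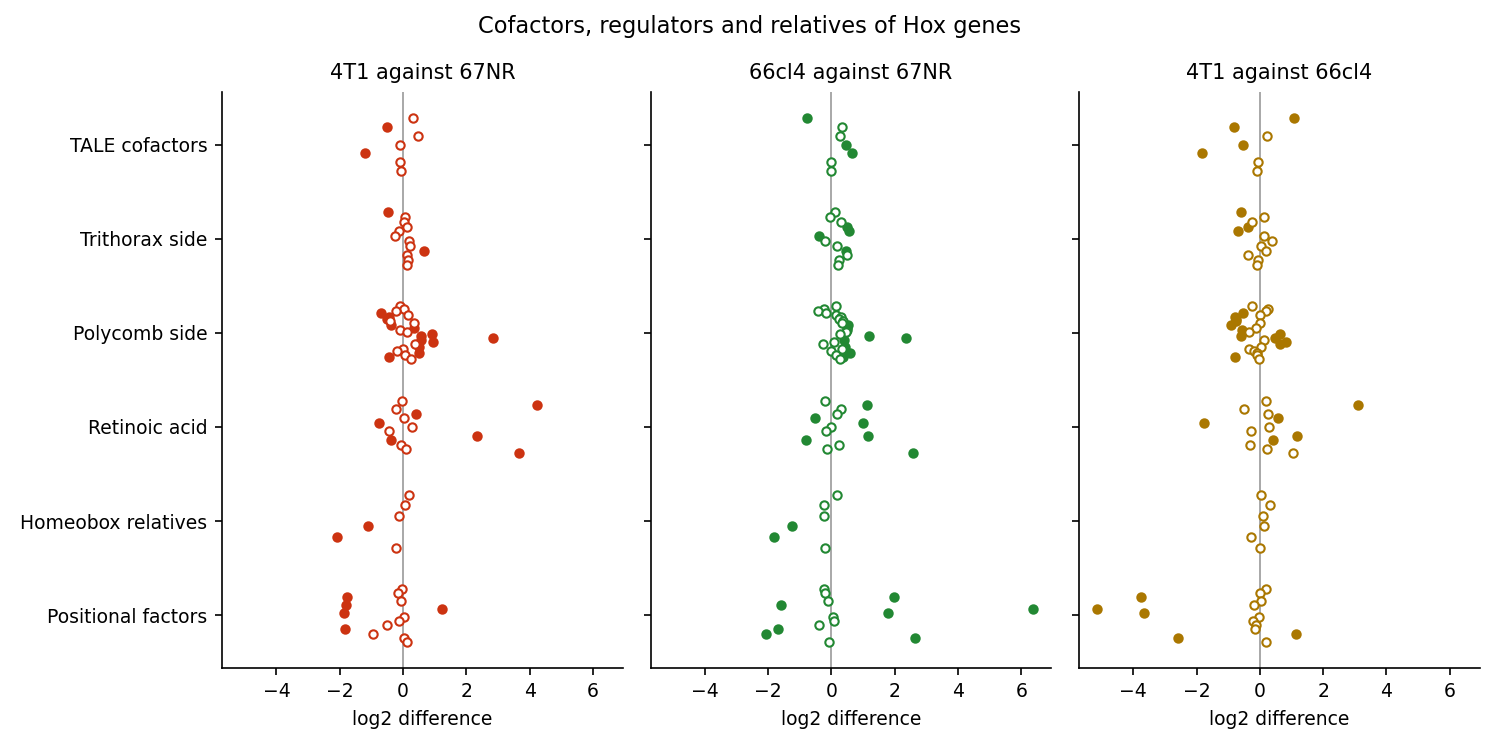
Log2 difference of each tested gene of 6 lists of Hox cofactors, regulators and relatives (rows) in the 3 comparisons (panels); filled points have an adjusted p under 0.05. The far points include Pcgf6 among Polycomb genes and Crabp1 and Stra6 in the retinoic acid row. In the row of positional factors they include Prrx2, Foxd1 and Shox2. All are drawn as measured.

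Homeobox relatives of Hox genes gave 0 higher and 2 lower of 6 tested, both in 4T1 and in 66cl4 against 67NR, and 0 in either direction between 4T1 and 66cl4 by limma, where 1 was higher at an unadjusted p under 0.05. The lower genes were Meox2 and Meox1, homeobox genes of mesoderm and vessels. Meox2 had means of 7.82 ± 0.04 (67NR), 6.01 ± 0.30 (66cl4) and 5.72 ± 0.35 (4T1), with differences of -2.10 ± 0.19 in 4T1 (adjusted p = 2.52e-05) and -1.81 ± 0.19 in 66cl4 (adjusted p = 9.23e-05). Meox1 differed by -1.10 ± 0.21 (adjusted p = 0.00217) and -1.24 ± 0.21 (adjusted p = 0.0013). Both moved with the endothelial and pericyte sums given beside the Hoxd genes, and the part of those cells was not tested. Evx2, beside the Hoxd cluster, and Gsx1, of the ParaHox cluster, had line means of 4.96 to 5.45 and passed nowhere.

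Other factors that mark position in mesenchyme numbered 14 tested. Of these 1 was higher and 4 lower in 4T1 than in 67NR, 4 higher and 3 lower in 66cl4 than in 67NR, and 1 higher and 4 lower in 4T1 than in 66cl4. Prrx2, a limb and craniofacial homeobox gene, was at 10.87 ± 0.15 in 66cl4 tumours, 5.73 ± 0.61 in 4T1 tumours and not above background in 67NR, at least 60.9-fold below 66cl4 (means 4.50 and 10.87, adjusted p = 5.12e-07). Tbx4, of hindlimb and lung mesenchyme, was above background in 66cl4 alone, at least 2.56-fold over 67NR (means 6.30 and 3.67, adjusted p = 1.89e-06). Its 66cl4 arrays alone carried it through the filter of the tests. Shox2 was at 8.90 ± 0.24 in 66cl4, 7.12 ± 0.11 in 67NR and 5.26 ± 0.62 in 4T1 tumours, and Foxd1 was at 8.34 ± 0.82, 6.37 ± 0.13 and, not above background, 4.59 ± 0.32. Like Hoxb6 and Hoxb3, these 4 genes had their highest mean in 66cl4 tumours.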

How the data were processed

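The deposited file holds log2 values the authors made, for 45101 probe sets on each of 9 Affymetrix arrays. The log2 scale was read from the values (2.42 to 14.8), and how probes were summarised and normalized was not given in the sources used here. Between arrays the 75th percentiles differed by 0.15, under a trigger of 0.5 for quantile normalization, so no further scaling was applied. Symbols came from the platform annotation, updated against a RefSeq table of GRCm38.p6, which matched 34754 of the 34958 probe sets with 1 gene; 932 had several genes and 9211 were unnamed here.

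limma 3.58.1 in R 4.3.3 (lmFit, eBayes) fitted all 9 arrays without covariates, with 6 residual and 3.63 prior degrees of freedom, two-sided and with Benjamini-Hochberg adjustment over 13409 genes. Adjusted p-values of second probe sets come from a fit over 28223 probe sets. The number of arrays, 3 per line, limits the precision, and p-values measure the spread between tumours of 1 line. Fits were tested on simulated data. Named genes are all Hox genes and, per list, up to 4 members with the smallest F-test p. Members and lists were chosen with earlier results of these data known. Normalization, filter, probe set, fit and covariate were varied, and arrays were left out in turn.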

Additional observations from a re-analysis of the deposited data

Results flagged for a closer look

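Probe sets for antisense transcripts of the Hox clusters, which the comparisons above do not use, carried signal above the control probe sets. Hoxb5os, on 1447886_at, had a mean log2 signal of 5.83 and was above the limit on 9 of 9 arrays. Its differences were -0.14, -0.12 and -0.02 in 4T1 against 67NR, 66cl4 against 67NR and 4T1 against 66cl4 tumours (limma adjusted p = 0.375, 0.478 and 0.899). Hoxd3os1, on 1460056_at, had a mean of 6.73, also above the limit on 9 of 9 arrays, with differences of 0.22, 0.03 and 0.19 (limma adjusted p = 0.615, 0.954 and 0.668). A second Hoxd3os1 set and both Hoxa11os sets were above the limit on 0 arrays.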

How the results depend on the processing

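Of the Hox counts, that between 4T1 and 67NR moved most, from 9 to 5 under the covariate of array file numbers and to 3 under that of hybridization controls, and both covariates differ between the lines. Leaving out single arrays gave 6 to 8 between 4T1 and 67NR, 3 to 6 (of 6) between 66cl4 and 67NR, 7 to 8 (of 8) between 4T1 and 66cl4 and 8 to 10 (of 10) in the F-test. The 3 came without 67NR replicate 3, which lost Hoxa5, Hoxb3 and Hoxd9. Without the filter the counts were 10, 7, 12 and 14. The number above background stayed at 21 under the 3 alternatives tried for it. Of the single differences of named Hox genes, 496 kept their side of the threshold, 69 fell below it and 8 passed it. No difference that passed with all arrays or in an alternative turned its direction, but 15 of the 496, in 5 comparisons that passed under neither, changed sign between values of at most 0.27 in size. The cause was not tested. The replicate block gave 9, 8, 7 and 10 Hox genes. Residuals of arrays with the same number correlated at -0.115 to 0.159, and those with different numbers at -0.182 to 0.161. No pairing by number was seen, but with 3 arrays per line a pairing that touches few genes could be missed. The background limit comes from other probe sets, and a dim Hox transcript could be missed.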

Other observations

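The genes next to the Hox clusters gave values of their own, and they were chosen after the values were seen. Skap2, an adaptor protein gene next to the 3′ end of the Hoxa cluster, was higher in 4T1 than in 67NR tumours by 1.45 ± 0.11 (SE, limma adjusted p = 7.93e-06) and than in 66cl4 tumours by 1.00 ± 0.11 (adjusted p = 7.98e-05). Snx10, the next gene outward, was higher by 0.50 ± 0.11 (adjusted p = 0.00476) and 0.38 ± 0.11 (adjusted p = 0.0181), and Cbx3, beyond it, differed by -0.00 ± 0.10 and 0.02 ± 0.10 (adjusted p = 0.98 and 0.924). On the 5′ side Hibadh was 0.34 ± 0.09 higher in 4T1 than in 67NR tumours (adjusted p = 0.0153) and Tax1bp1 differed by -0.18 ± 0.10 (adjusted p = 0.179). Beside the Hoxb cluster, where Hoxb3 to Hoxb6 were lower in 4T1 than in 66cl4 tumours, the neighbours went both ways in that comparison. Skap1 was 0.57 ± 0.17 higher in 4T1 tumours (adjusted p = 0.0234), and Snx11 and Cbx1 beyond it differed by 0.02 ± 0.10 and -0.25 ± 0.13 (adjusted p = 0.899 and 0.151). On the other side Ttll6 differed by -0.08 ± 0.10 (adjusted p = 0.595), and Atp5g1 was lower in 4T1 tumours, by a difference of -0.41 ± 0.12 (adjusted p = 0.0234). Neighbours also differed beside the Hoxc cluster, where no tested Hox gene passed on its brightest set. Smug1, Atp5g2 and Atf7 differed by -0.87, -0.80 and -0.70 in the same comparison (adjusted p = 0.000174, 0.000288 and 0.000907). Calcoco1, Cbx5 and Hnrnpa1 there did not pass, nor did any tested neighbour of the Hoxd cluster. Any link between neighbours and Hox genes was not tested.

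Some probe sets were annotated to more than 1 Hox gene and were left out of the counts. The set shared by Hoxb8 and Hoxb7 had means of 4.99 ± 0.47 (67NR), 4.84 ± 0.23 (66cl4) and 4.35 ± 0.04 (4T1), with SD and n = 3, and was above the limit on 3 of 9 arrays, 2 of 67NR and 1 of 66cl4. This set passed between 4T1 and 67NR tumours, with a log2 difference of -0.64 (limma adjusted p = 0.042), and in no other comparison. No fold is given, since these values lie at the limit. Both sets shared by Hoxd4 and Hoxd3 passed in no comparison.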
